A study of Rattus norvegicus with 99 samples.

Results

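The interventricular septum (Spt) of rats with right heart failure was compared with the septum of older sham-operated rats. The libraries were taken by the condition and tissue in their titles, 3 of PAB-F, 2 of Sham-RF and 3 of Sham-LF, which is 8 of the 99 libraries of the series. The whole series holds polyadenylated RNA of left ventricle (LV), septum and right ventricle (RV) from 33 animals in 7 conditions, with 1 library from each chamber of each animal. All were male first-generation crosses of Wistar Kyoto dams with Lewis sires, and the sham animals had surgery without banding. PAB-F animals carried a clip around the pulmonary artery that does not narrow the vessel when it is placed in a weanling and does so as the animal grows, and by their labels they were 27 weeks old, 21 weeks after surgery, at heart failure. Sham-RF animals had the same age and time after surgery, and Sham-LF animals were 30 weeks old, 24 weeks after surgery. For comparison, 4 septum libraries of AOB-F (a clip around the aorta, age 30 weeks, 24 weeks after surgery, left heart failure) and 7 each of PAB-H and Sham-H (pulmonary clip at the compensated stage and its shams, age 11 weeks, 7 weeks after surgery) were used, with the RV and LV libraries of the same 8 older animals. The ages are those of the sample labels, and the text of the study gives other ages. Each library is bulk tissue of 1 animal, so that p-values measure the spread between these animals, and the groups hold 2 (Sham-RF) to 7 (PAB-H and Sham-H) animals.

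The septum is shared by both ventricles. It is built of left and right sided muscle layers, follows the left ventricle in a normal heart, and is pushed to the left when pressure in the right ventricle rises. A ventricle under pressure load re-expresses genes of the fetal heart, such as those for natriuretic peptides, skeletal alpha-actin and beta-myosin heavy chain, and lays down extracellular matrix. A failing heart also shifts its fuel use away from fatty acids and changes the proteins that cycle calcium.

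Total counts of the 8 septum libraries lay between 12.1 and 18 M (mega), against 12.1 to 24.2 M over the series. Ventricular cardiomyocyte markers added up to 79002 to 83352 CPM (a gene's count relative to the TMM-scaled size of its library, in counts per M) in PAB-F and 82440 to 98166 in the shams, and the summed fibroblast, macrophage and endothelial markers overlapped between the groups. In bulk tissue, fewer cells of a type and less RNA per cell cannot be told apart. Sham-LF replicate 1 had the highest endothelial, adipocyte, mesothelial and Schwann cell and neuron sums of the 8 septa, 1966.8, 1651.5, 48.4 and 50.1 CPM. Its Pearson correlations of log2 CPM with the PAB-F libraries, 0.970 to 0.975, were the lowest of any sham. Myl7, the atrial myosin light chain, lay between 2.43 and 16.7 CPM in 7 of the 8 septum libraries and at 253 CPM in Sham-LF replicate 1, and Bmp10, of the right atrium, at 0 in 6 of the 8 and 0.741 CPM or less in the others. On the first principal component (49.2% of the variance of log2 CPM), PAB-F replicates scored 19.0, 12.6 and 16.1, Sham-RF replicates 1.40 and −13.0, and Sham-LF replicates −37.2, −16.1 and 17.1. Sham-LF replicate 3 thus lay among the PAB-F libraries, and in 72.1% of 11117 genes it was nearer to the PAB-F mean than to the mean of the other 4 shams, against 30.2% to 48% for the others. Its RV library also lay beside PAB-F, with a score of 11.3 against 0.882 or less in the other sham RV libraries and 10.3 to 37.2 in PAB-F, while no label sets this animal apart. The main results are therefore given with and without it.

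**Figure D1:**
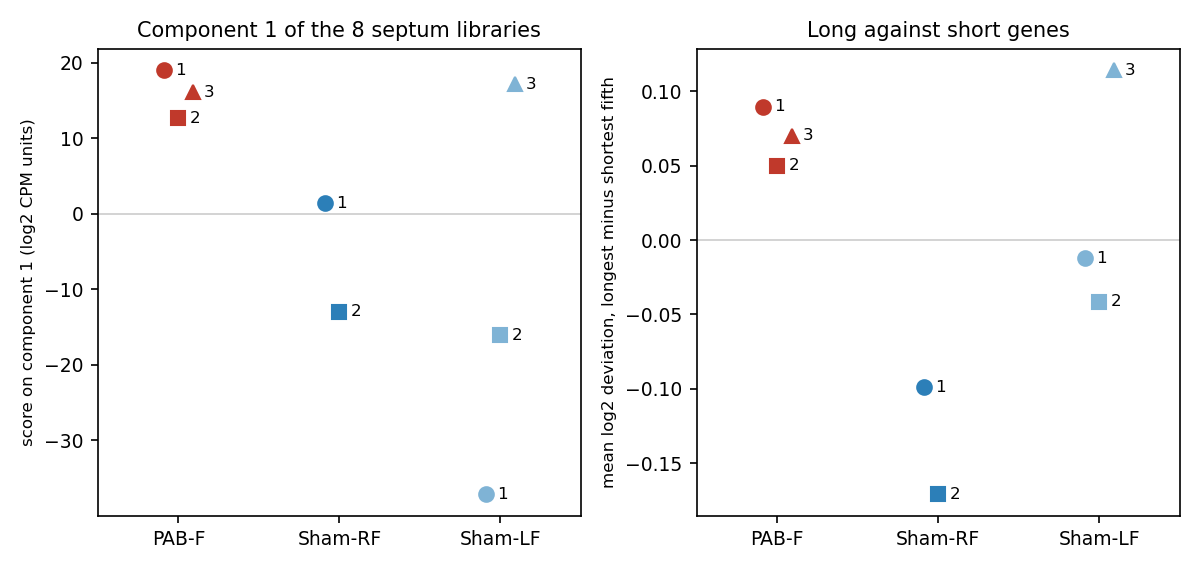
Left, score of each of the 8 septum libraries on the first principal component of log2 CPM; right, mean log2 deviation of the longest minus that of the shortest of 5 equal length classes of genes, with each point 1 library and its replicate number. Sham-LF replicate 3 (17.1 and 0.114) lies with the PAB-F libraries on both scales, and the other shams lie lower.

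The first question was which genes of the septum differed between PAB-F and all 5 older shams. Of 11117 genes tested, none had an adjusted p under 0.05 (0% called). The lowest adjusted p of edgeR's quasi-likelihood test was 0.355. At an unadjusted p under 0.05 there were 1490 genes (13.4%), 878 higher (7.9%) and 612 lower (5.51%) in PAB-F, where about 556 would come from 11117 null tests. DESeq2 called 1 gene, Ptgfr, and limma-voom none, while limma-voom with a weight for each library called 813 higher and 345 lower. In 803 genes (7.22%) the 3 PAB-F libraries did not overlap with the 5 shams, 425 with PAB-F above (3.82%) and 378 with PAB-F below (3.4%). The values below describe how the libraries lie, and where a gene of this comparison is called higher or lower without an adjusted p, it did not pass the threshold.

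Of the natriuretic peptides, the blood-borne signals of a stretched heart muscle, Nppa read 404, 2744 and 945 CPM in PAB-F, 319 and 441 in Sham-RF and 828, 684 and 348 in Sham-LF. PAB-F replicate 2 stood far above every other library, PAB-F replicate 1 lay within the range of the shams, and the log2 difference was 1.39 ± 0.49 (SE), or 0.37 without PAB-F replicate 2. Sham-LF replicate 1, the highest of the shams, is the library with the most Myl7, and as Nppa is abundant in atria, the part of atrial RNA in this value was not tested. Nppb read 272, 603 and 394 CPM in PAB-F, 354 and 300.1 in Sham-RF and 365, 388 and 327 in Sham-LF, with overlap of the groups and a log2 difference of 0.29 ± 0.20 that turned to −0.05 without PAB-F replicate 2. Acta1, the skeletal alpha-actin of the fetal heart, read 1134, 2240.0 and 2094 CPM in PAB-F, 1506 and 1299 in Sham-RF and 1085, 1457 and 1364 in Sham-LF. PAB-F replicates 2 and 3 lay above all shams and replicate 1 among them.

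The same order of the PAB-F animals held in further stretch genes. Ankrd23, a titin-binding ankyrin repeat protein of the sarcomere, read 99.8, 255 and 205 CPM in PAB-F, 133 and 95.2 in Sham-RF and 123, 116 and 163 in Sham-LF. Tceal7, a small nuclear protein of the transcription elongation factor A-like family, read 23.6, 88.1 and 62.1 CPM in PAB-F, 33.2 and 31.8 in Sham-RF and 38.7, 36.7 and 37.1 in Sham-LF. In both genes PAB-F replicate 1 lay at or below the middle of the shams, while replicates 2 and 3 exceeded all 5. Xirp2, an actin-binding protein of the intercalated disc, gave 655, 1253 and 900.05 CPM in PAB-F, 601 and 534 in Sham-RF and 630.5, 682 and 732 in Sham-LF, and Sham-LF replicates 2 and 3 reached above PAB-F replicate 1. Tgfb2, a growth factor that acts on fibroblasts, was at 18.3, 26.0 and 22.9 CPM in PAB-F, 17.8 and 15.2 in Sham-RF and 17.3, 17.6 and 17.7 in Sham-LF, and all 3 PAB-F libraries lay above the shams. Over the list of 23 stress and stretch genes tested, 7 were higher and 0 lower at an unadjusted p under 0.05 (30.4% higher, against 7.9% of all genes), with a median log2 difference of 0.18 against 0.01 over all genes. Against Sham-RF alone 3 were higher (13%, against 5.45% of all genes) and 0 lower, with a median of 0.38 against 0.01 over all genes. Myh7, beta-myosin heavy chain, which is nearly identical to Myh6 over long stretches so that its reads may be assigned uncertainly (as for Acta1 and Actc1), differed by 0.18 ± 0.20 and overlapped. The 17 sarcomere genes, which encode the contractile filaments themselves, had 0 higher and 0 lower and a median of −0.0036.

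The first list held 10 genes, 6 that the study followed in tissue sections with Myh7 and 3 collagens, and as the study chose from these samples, their directions are no independent evidence. At an unadjusted p under 0.05, 4 of the 10 were higher and 1 lower (7.9% and 5.51% of all genes). The lower one was Penk, the precursor of the enkephalins, and the only one with a log2 difference below 0. Its values were 294, 277 and 231 CPM in PAB-F, 334 and 359.6 in Sham-RF and 377, 287 and 363 in Sham-LF. PAB-F overlapped with Sham-LF replicate 2 alone, and the log2 difference was −0.36 ± 0.11 (edgeR adjusted p = 0.355). In the RV of the same animals the direction was the opposite.

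Matrix genes lay on the higher side against the pooled shams, with small differences, and not against Sham-RF alone. Of 39 extracellular matrix genes tested, 9 were higher and 0 lower at an unadjusted p under 0.05 (23.1%), with a median log2 difference of 0.15. Against Sham-RF alone 1 of 39 was higher (2.56%, against 5.45% of all genes) and 0 lower, with a median of 0.03. Col14a1, a collagen that associates with fibrils, read 76.3, 88.0 and 96.4 CPM in PAB-F, 73.0 and 78.1 in Sham-RF and 64.1, 65.4 and 64.0 in Sham-LF. PAB-F replicate 1 lay between both Sham-RF libraries and the other PAB-F libraries above all shams. Postn, a matrix protein of activated fibroblasts, read 7.55, 30.9 and 13.1 CPM in PAB-F, 11.6 and 6.12 in Sham-RF and 10.5, 8.39 and 11.1 in Sham-LF, and Thbs4, a thrombospondin, 1.06, 11.9 and 7.40 CPM in PAB-F, 2.34 and 1.73 in Sham-RF and 4.02, 1.56 and 2.68 in Sham-LF. In both, PAB-F replicate 2 was the highest of all libraries and replicate 1 lay at or below the middle of the shams. The main fibrillar collagens overlapped, with log2 differences of 0.19 ± 0.20 for Col1a1, which was −0.01 without PAB-F replicate 2, 0.21 ± 0.17 for Col3a1 and 0.27 ± 0.14 for Col8a1. Of 20 TGF-beta and matrix signalling genes, 3 were higher and 1 lower (15% and 5%, against 7.9% and 5.51% of all genes). The lower one, Tgfb1, had no overlap. It read 43.1, 42.7 and 42.7 CPM in PAB-F, 54.4 and 59.2 in Sham-RF and 65.6, 44.8 and 45.2 in Sham-LF.

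**Figure D2:**
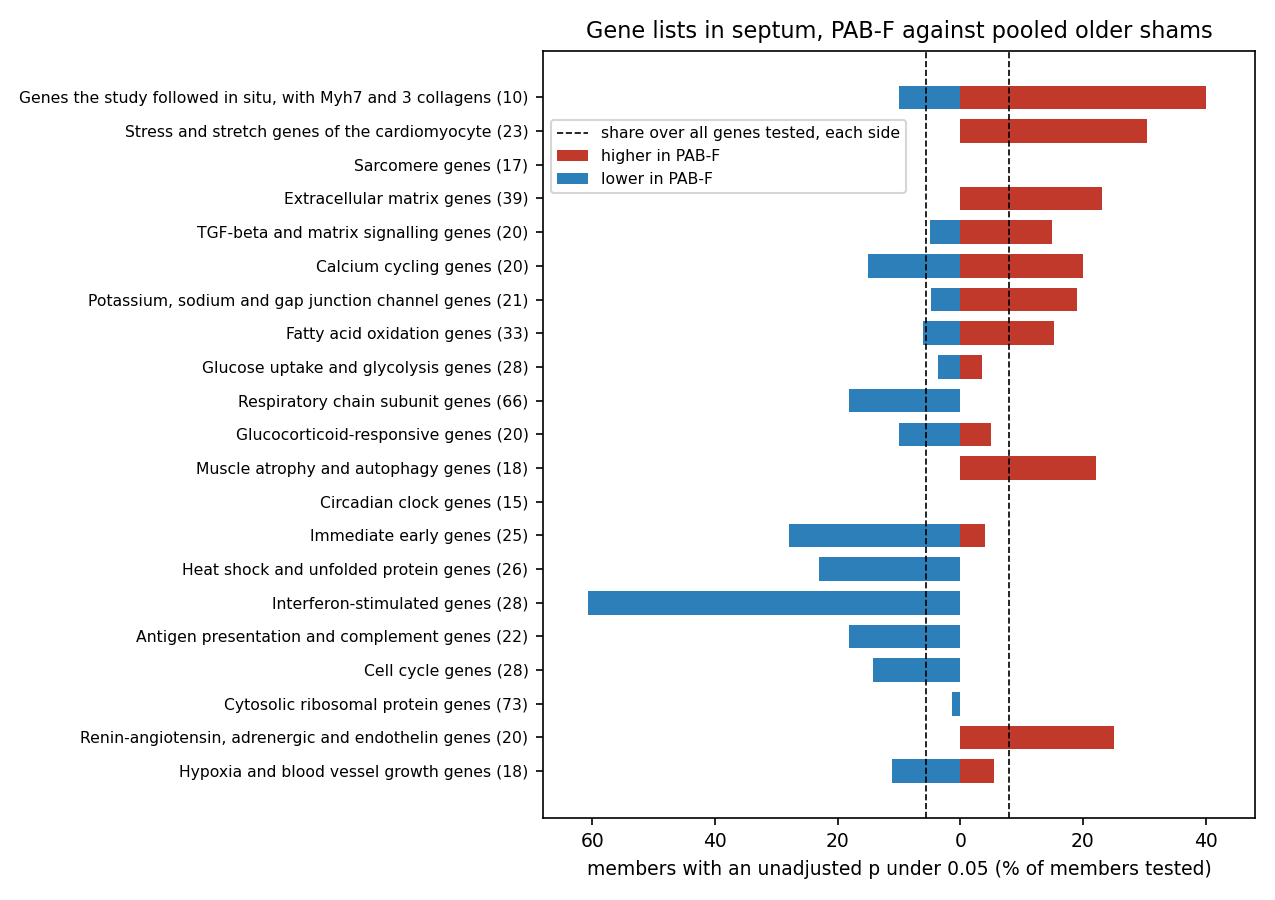
Share of the tested members of 21 gene lists (number tested in brackets) with an unadjusted p under 0.05 in septum, PAB-F against the 5 pooled older shams, higher in PAB-F to the right and lower to the left; dashed lines give the share over all 11117 genes, 7.9% and 5.51%. Stress, matrix and neurohumoral lists extend to the right and interferon-stimulated genes, with 60.7% lower, to the left, and no gene passed an adjusted p of 0.05.

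The list farthest on the lower side was that of interferon-stimulated genes, which cells switch on in response to interferon. Of 28 tested, 17 were lower and 0 higher (60.7%, against 5.51% of all genes), with a median log2 difference of −0.30. In 9 of the 28 PAB-F lay below the shams with no overlap, as in 3.4% of all genes. Against Sham-RF alone 6 were lower (21.4%, against 3.43% of all genes) and 0 higher, with a median of −0.23. Isg15, a ubiquitin-like modifier, read 14.4, 15.8 and 16.9 CPM in PAB-F, 20.6 and 24.2 in Sham-RF and 28.1, 22.9 and 17.7 in Sham-LF. Irf7, a transcription factor of the interferon response, gave 91.3, 90.9 and 104 CPM in PAB-F, 121 and 119.8 in Sham-RF and 148, 106 and 111 in Sham-LF, and Bst2, which tethers viruses to the cell surface, 169, 171 and 201 CPM in PAB-F, 237 and 256 in Sham-RF and 428, 286 and 198 in Sham-LF. Isg15 and Irf7 did not overlap, and in Bst2 only Sham-LF replicate 3 fell within the PAB-F range. Antigen presentation and complement genes had 4 of 22 lower (18.2%, against 5.51% of all genes) and 0 higher. Among the lower ones was Psmb9, a subunit of the immunoproteasome. It read 35.2, 33.6 and 37.7 CPM in PAB-F, 48.5 and 59.8 in Sham-RF and 56.5, 45.9 and 36.1 in Sham-LF. The 12 macrophage markers showed 0 higher and 0 lower, with sums of 396 to 619.9 CPM in PAB-F and 430 to 604 in the shams. Of 4 lymphocyte markers tested, 1 was lower. The sums over all 9 lymphocyte markers with counts were 7.91 to 12.5 CPM in PAB-F and 10.2 to 16.2 in the shams. Cd69, an early activation antigen of lymphocytes, had the lowest p of all genes, with 2.64, 2.75 and 3.39 CPM in PAB-F, 5.43 and 6.71 in Sham-RF and 5.02, 4.84 and 5.00 in Sham-LF, and all 3 PAB-F libraries lay below the 5 shams (log2 difference −0.88 ± 0.17). The part of lymphocyte number in it was not tested.

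Immediate early genes also lay on the lower side, and heat shock genes did so against the pooled shams but not against Sham-RF alone. Of 25 immediate early genes, which encode short-lived transcripts that stimuli induce within minutes, 7 were lower and 1 higher, and against Sham-RF alone 14 were lower (56%, against 3.43% of all genes) and 0 higher. Jun, a subunit of AP-1, read 147, 172 and 183 CPM in PAB-F, 224 and 199 in Sham-RF and 251, 215 and 201 in Sham-LF, without overlap, and Fos, its partner, 1.96, 4.62 and 5.86 CPM in PAB-F, 13.3 and 12.2 in Sham-RF and 7.72, 5.53 and 5.79 in Sham-LF, where PAB-F replicate 3 overlapped with Sham-LF. Of 26 heat shock and unfolded protein genes, 6 were lower and 0 higher, with a median of −0.16, and against Sham-RF alone 0 were lower and 0 higher, with a median of 0.02. Hspb1, a small heat shock protein, was at 264, 338 and 318 CPM in PAB-F, 350.4 and 392.5 in Sham-RF and 540.4, 475 and 366 in Sham-LF, so that PAB-F lay below the shams. Cell cycle genes had 4 of 28 lower and 0 higher. Against the pooled shams, 28% of immediate early, 23.1% of heat shock and 14.3% of cell cycle genes were lower. Over all genes this share was 5.51%. Cenpf, a centromere protein, read 3.17, 3.79 and 4.19 CPM in PAB-F, 4.32 and 6.58 in Sham-RF and 7.15, 8.04 and 5.61 in Sham-LF. The times at which tissue was taken are not given in the labels, and 15 circadian clock genes had 0 higher and 0 lower.

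In the following genes of calcium handling, fuel use and muscle atrophy, named for their low p in these lists, Sham-LF replicate 3 was the sham nearest to PAB-F or lay within its range. Camk2d, the cardiac calcium/calmodulin-dependent kinase, read 71.1, 62.8 and 68.5 CPM in PAB-F, 39.8 and 36.2 in Sham-RF and 24.7, 36.6 and 69.8 in Sham-LF. Pdk4, the kinase that turns pyruvate dehydrogenase off, read 123, 129 and 158 CPM in PAB-F, 85.1 and 61.6 in Sham-RF and 40.7, 50.1 and 139 in Sham-LF, and Ppara, the receptor that drives fatty acid oxidation genes, 13.7, 13.8 and 14.0 CPM in PAB-F, 8.71 and 7.64 in Sham-RF and 6.21, 6.83 and 14.3 in Sham-LF. In these 3 genes PAB-F exceeded both Sham-RF and the first 2 Sham-LF libraries, and Sham-LF replicate 3 was within or above the PAB-F range. Fbxo32, the muscle ubiquitin ligase atrogin-1, gave 19.3, 15.1 and 16.9 CPM in PAB-F, 7.13 and 6.98 in Sham-RF and 5.33, 6.40 and 14.3 in Sham-LF, and here PAB-F lay above all 5 shams, as for Foxo3, a transcription factor of muscle atrophy, at 11.9, 13.6 and 11.4 CPM in PAB-F, 7.60 and 7.25 in Sham-RF and 5.65, 5.45 and 11.3 in Sham-LF. Trdn, triadin of the calcium release unit, was lower, with 359.6, 367 and 361 CPM in PAB-F, 416 and 545 in Sham-RF and 767, 719.6 and 373 in Sham-LF.

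Over all genes, 7.9% were higher and 5.51% lower at an unadjusted p under 0.05. Counts of these lists were 4 higher and 3 lower of 20 calcium cycling genes. For 21 potassium, sodium and gap junction channel genes they were 4 and 1. They were 5 and 2 of 33 fatty acid oxidation genes and 4 and 0 of 18 muscle atrophy and autophagy genes. Respiratory chain subunits, which make ATP in mitochondria, had 0 of 66 higher and 12 lower (18.2%), with a median of −0.17, and Ndufv3, a subunit of complex I, read 178, 155 and 174 CPM in PAB-F, 211 and 249 in Sham-RF and 235, 226 and 168 in Sham-LF. Only Sham-LF replicate 3 lay in the PAB-F range. Glucose uptake and glycolysis genes had 1 higher and 1 lower of 28, glucocorticoid-responsive genes 1 and 2 of 20, hypoxia and blood vessel growth genes 1 and 2 of 18, and cytosolic ribosomal protein genes 0 and 1 of 73. In the renin-angiotensin, adrenergic and endothelin list 5 of 20 were higher and 0 lower. Against Sham-RF alone 2 were higher (10%, against 5.45% of all genes) and 0 lower. Npr3, the receptor that clears natriuretic peptides, read 22.4, 18.0 and 15.2 CPM in PAB-F, 10.1 and 10.1 in Sham-RF and 5.46, 7.95 and 12.2 in Sham-LF, and Edn1, endothelin-1, 1.89, 1.98 and 2.84 CPM in PAB-F, 1.23 and 1.60 in Sham-RF and 1.76, 1.04 and 1.22 in Sham-LF, both with no overlap.

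Gene length moved with this comparison. The median log2 difference went from −0.08 in the shortest of 5 equal length classes to 0.06 in the longest, and the share higher at an unadjusted p under 0.05 from 4.85% to 12.6%. The difference between the longest and the shortest class was 0.0501 to 0.0896 in PAB-F, −0.171 and −0.0988 in Sham-RF, and −0.0121, −0.0414 and 0.114 in Sham-LF (log2), so that Sham-LF replicate 3 was the highest of all. After a trend on length was removed, no gene passed the threshold and 1513 had an unadjusted p under 0.05. The respiratory chain and ribosomal protein lists hold many short genes, and the part of length in their values was not tested.

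The other genes of lowest p form no list of their own. Ptgfr, the receptor for prostaglandin F2 alpha, read 12.1, 31.5 and 8.88 CPM in PAB-F, 5.90 and 6.58 in Sham-RF and 4.89, 4.93 and 6.28 in Sham-LF, above all shams in each PAB-F library (log2 difference 1.62 ± 0.33). It was 0.87 without PAB-F replicate 2. Lifr, the receptor subunit for leukemia inhibitory factor and related cytokines, gave 30.0, 22.8 and 27.4 CPM in PAB-F, 15.2 and 16.4 in Sham-RF and 15.1, 17.9 and 21.4 in Sham-LF, and Taok1, a stress-activated kinase, 21.8, 23.2 and 25.0 CPM in PAB-F, 15.3 and 15.6 in Sham-RF and 16.5, 15.7 and 19.5 in Sham-LF, both above the shams. Thbd, thrombomodulin of the endothelium, which turns thrombin to an anticoagulant, was lower, with 139, 124 and 127 CPM in PAB-F, 186 and 162 in Sham-RF and 234, 194 and 178 in Sham-LF. Of 8 endothelial markers, 4 were lower and 1 higher at an unadjusted p under 0.05 (5.51% and 7.9% of all genes). Their sums were 1279.6 to 1443 CPM in PAB-F and 1246 to 1967 in the shams. The part of the endothelium in the value of Thbd was not tested. Dapk2 and Aloxe3, a death-associated kinase and a lipoxygenase, were also lower, and Mre11a and Edem3, of DNA repair and of the disposal of misfolded glycoproteins, higher, with log2 differences of −0.54 ± 0.11, −0.59 ± 0.13, 0.64 ± 0.13 and 0.76 ± 0.16.

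**Figure D3:**
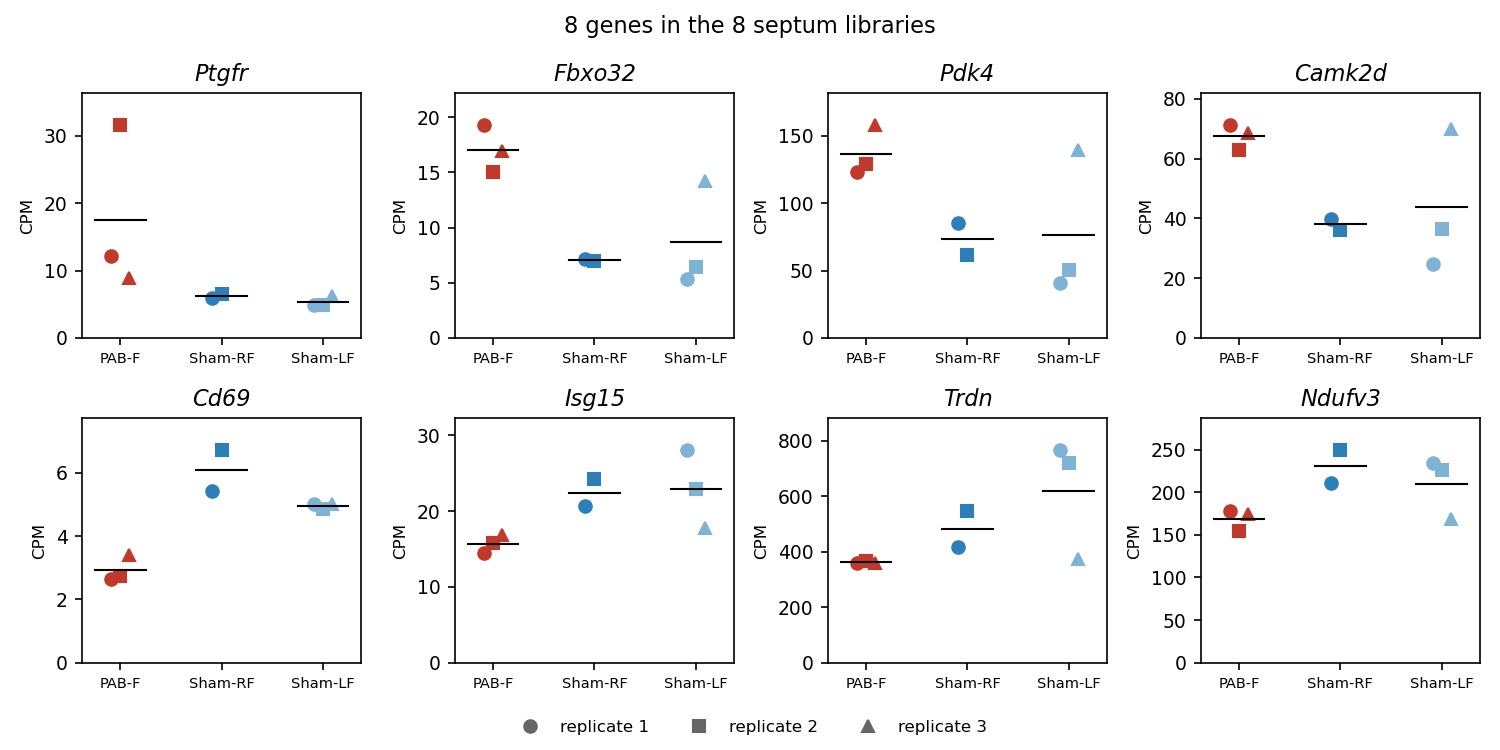
CPM of 8 genes in each of the 8 septum libraries, with symbols for the replicate number and a bar at each group mean; vertical axes start at 0. In Pdk4, Camk2d, Trdn and Ndufv3 the triangle of Sham-LF replicate 3 lies at the level of PAB-F and away from the other shams, while in Cd69 and Ptgfr it does not.

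The count of genes past the threshold turned on that 1 library. Without Sham-LF replicate 3, 888 of 11095 genes passed (8%), 588 higher (5.3%) and 300 lower (2.7%) in PAB-F, and without any other single library none did. This library was singled out by its values in the same genes, so that the 888 are given as a description. They held 20 of 66 respiratory chain subunits, all lower, 6 of 28 interferon-stimulated genes, all lower, 5 of 33 fatty acid oxidation genes, all higher (named after their values were seen, Cd36, Pdk4, Ppara, Ppargc1a and Acacb), and 3 channel genes, all higher (Kcnj3, Kcnk3 and Abcc9). Of the calcium cycling list, Cacna1c, Jph2, Camk2d and Mcu were higher, and Trdn was lower. In that fit the log2 difference was 1.39 ± 0.13 for Fbxo32 (edgeR adjusted p = 0.0024), 0.96 ± 0.14 for Camk2d (0.00648) and −0.62 ± 0.12 for Isg15 (0.0178). None of the stress and stretch genes, the extracellular matrix genes or the 10 genes of the first list was among the 888.

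Against Sham-RF alone, the 2 shams of the same age and time after surgery, no gene passed either when Sham-LF helped to estimate the spread (0% of 11245, lowest adjusted p 0.394, 999 at an unadjusted p under 0.05, 8.88%). DESeq2 called 25. When only the 5 libraries of PAB-F and Sham-RF were fitted, 792 of 11154 genes passed (7.1%), 535 higher (4.8%) and 257 lower (2.3%) in PAB-F. Without Sham-LF replicate 3, the fit with 7 libraries called 241. The 3 fits differ in the genes tested, the scaling and the estimate of the spread, and which of these moved the count was not tested.

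The genes that passed with 5 libraries fell in several lists. Respiratory chain subunits had 28 of 66 lower, immediate early genes 10 of 25 lower, and antigen presentation and complement genes 9 of 22 lower, with none of these 3 lists on the higher side. Camk2d was higher by 0.83 ± 0.08 (edgeR adjusted p = 0.00242), Fbxo32 by 1.27 ± 0.14 (0.0033) and Pdk4 by 0.90 ± 0.14 (0.0109). Penk was the only one of the first 10 genes to pass, at −0.37 ± 0.10 (0.0462). With 3 against 2 libraries, 43.4% of the 11245 genes do not overlap between the groups, so that separation alone says little here. Gene length moved with this comparison more than with the pooled one, with a Spearman correlation across genes of 0.324 against 0.196. Between Sham-LF and Sham-RF, which were not banded, the correlation was 0.312. The part of length in the calls was not tested.

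Both groups of shams, which differ by 3 weeks in age and time after surgery, were compared as well. No gene passed between Sham-LF and Sham-RF septum (0% of 11245, lowest adjusted p 0.70), and DESeq2 called 15. At an unadjusted p under 0.05 there were 685 (6.09%), 365 higher (3.25%) and 320 lower (2.85%) in Sham-LF. The libraries of these groups did not overlap in 2221 genes (19.8%), in 1005 of them with Sham-LF above (8.94%) and in 1216 with Sham-LF below (10.8%).

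The next question was whether the septum answered pulmonary artery banding as the loaded right ventricle did. In 24 libraries of the 8 animals, with the animal as a block, the difference between PAB-F and the older shams was itself different in Spt and RV for 93 of 11484 genes (0.81%), 53 with a lower log2 difference in Spt (0.462%) and 40 with a higher one (0.348%). At an unadjusted p under 0.05, 866 were lower (7.54%) and 665 higher (5.79%). Most of the distance lay in the RV. Of the 93, 78 had no overlap between PAB-F and shams in RV (43 of the 53 with PAB-F above and 35 of the 40 with PAB-F below), against 9 in Spt and 4 in LV. Over all 11484 genes the share without overlap was 14.4% in RV, 7.25% in Spt and 2.58% in LV, so that 9 of 93 in Spt is near the share of all genes. The median size of the log2 ratio of means over the 93 genes was 0.847 in RV, 0.165 in Spt and 0.0773 in LV, and as the RV responses chose many of these genes, these medians are a description. In these 24 libraries the library numbers in the labels run in separate blocks for Spt and for RV and LV. Whether these were prepared apart is not given in the labels.

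In the stress and stretch list 9 of 23 genes passed with a smaller difference in Spt and 0 with a larger one, and 6 of the 10 genes of the first list did. Nppb, Acta1, Ankrd23 and Myh7 are in both lists, so that these counts are not separate. The study chose Nppb, Penk, Acta1, Ankrd23 and Tceal7 for strong regulation in RV, from data that include these samples. Their smaller difference in Spt is therefore no independent evidence. In RV Nppb read 173, 873 and 594 CPM in PAB-F, 90.1 and 46.9 in Sham-RF and 64.9, 65.5 and 148 in Sham-LF. All PAB-F libraries lay above the shams there, with PAB-F replicate 1 close to Sham-LF replicate 3, against overlapping values in Spt, and the difference between the chambers was −2.37 ± 0.35 (log2, edgeR adjusted p = 0.00371). Ankrd23 in RV read 94.8, 661 and 349 CPM in PAB-F, 36.4 and 24.7 in Sham-RF and 17.1, 30.5 and 26.9 in Sham-LF, a separation that Spt did not show (difference −2.99 ± 0.41, edgeR adjusted p = 0.00242). Acta1 read 1673, 4513 and 3609 CPM in PAB-F, 716 and 661 in Sham-RF and 743, 694 and 526 in Sham-LF in RV, and the difference was −1.82 ± 0.24 (edgeR adjusted p = 0.00225). Tceal7 gave 23.7, 129.9 and 68.1 CPM in PAB-F, 8.40 and 7.34 in Sham-RF and 7.66, 9.60 and 3.65 in Sham-LF in RV and a difference of −2.59 ± 0.39 (edgeR adjusted p = 0.005). In each of these 4 genes PAB-F replicate 1 was the lowest of the PAB-F animals in RV as in Spt, but in RV it still exceeded all shams.

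These 4 genes stood higher in the septum than in the RV of sham hearts. Between Spt and RV this cannot be told apart from the separate blocks of library numbers. Of these 4 genes, LV values are given below for Acta1 alone, and in shams they all lay above those in RV. The part of the blocks in the levels of these genes was not tested. In septum, Nppb, Ankrd23, Acta1 and Tceal7 were at 304 to 395, 96.4 to 164, 1119.9 to 1514 and 32.2 to 39.95 CPM (lowest to highest of 5), against 46.9 to 148, 17.1 to 36.4, 526 to 743 and 3.65 to 9.60 in RV. The PAB-F ranges of both chambers overlapped, for example 1131 to 2252 CPM in Spt and 1673 to 4513 in RV for Acta1.

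Penk went apart in sign. Its RV values were 95.1, 133 and 121 CPM in PAB-F, 55.6 and 44.4 in Sham-RF and 55.6, 35.2 and 34.1 in Sham-LF, so that PAB-F lay above all shams in RV and mostly below them in Spt, and the difference between the chambers was −1.75 ± 0.24 (edgeR adjusted p = 0.00242). Myh7 had RV values of 5867, 13016 and 8536 CPM in PAB-F, 4692 and 4309.7 in Sham-RF and 4127, 4810.2 and 3979 in Sham-LF and a difference of −0.81 ± 0.18 (edgeR adjusted p = 0.0435). Nppa, with RV values of 287, 5691 and 5308 CPM in PAB-F, 51.5 and 48.6 in Sham-RF and 77.3, 98.8 and 1237 in Sham-LF, did not pass (difference −3.36 ± 1.18, edgeR adjusted p = 0.207). The RV libraries of PAB-F replicate 3 and Sham-LF replicate 3 held Sln, the sarcolipin of atrial muscle, at 305 and 209 CPM, with 8.94 or less in the others, and the part of atrial RNA in the RV values of Nppa was not tested. The collagens Col1a1 and Col3a1 had differences of −0.09 ± 0.18 and −0.10 ± 0.19 and did not pass, while Cilp and Fap, a matrix protein of cartilage and a protease of activated fibroblasts, passed with −1.85 ± 0.36 and −1.14 ± 0.25 (edgeR adjusted p = 0.0301 and 0.0427).

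**Figure D4:**
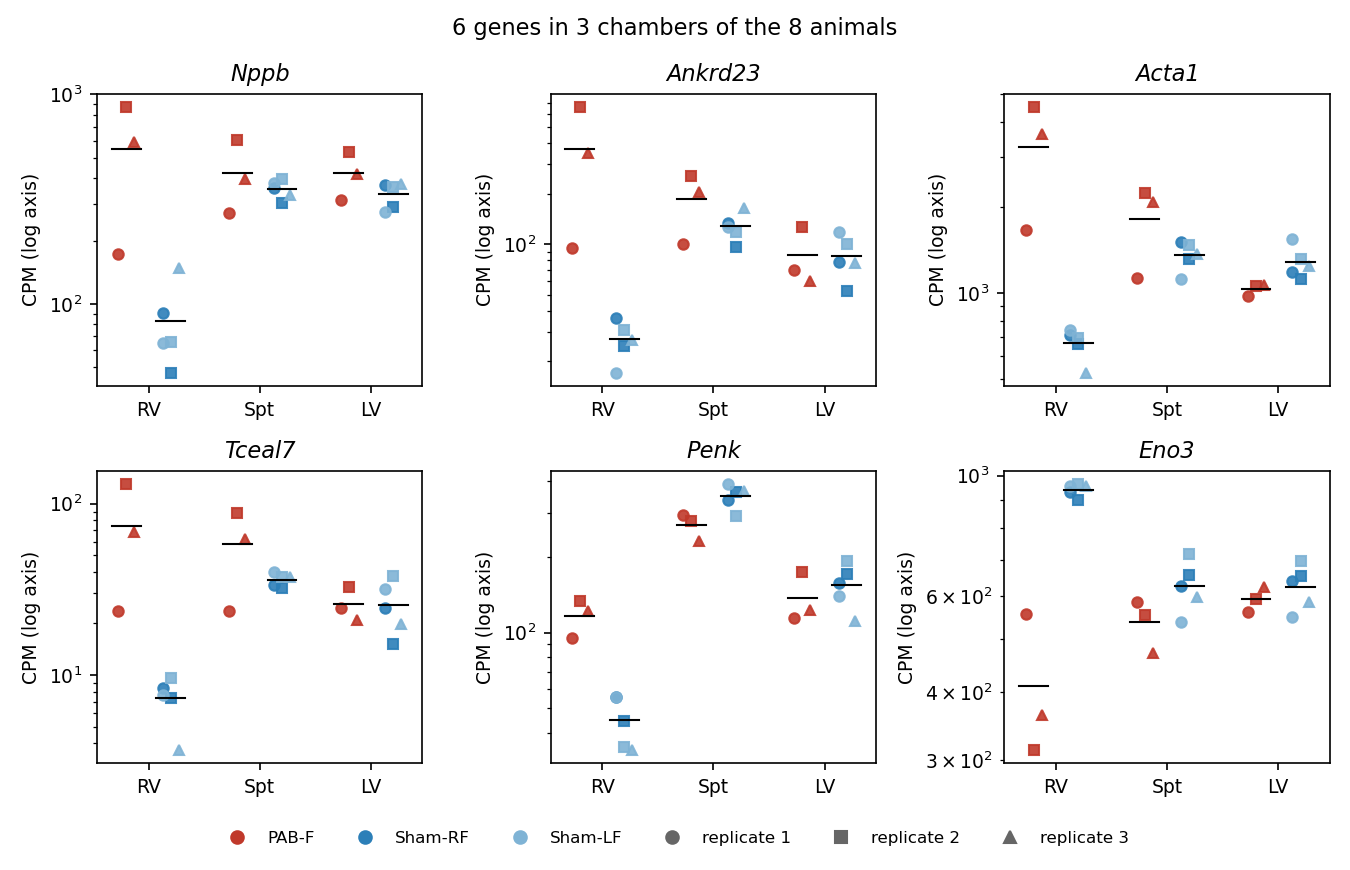
CPM on a log axis of 6 genes in RV, Spt and LV of the 8 older animals, PAB-F left and shams right at each chamber, with symbols for the replicate number and a bar at each mean. In Nppb, Ankrd23, Acta1, Tceal7 and Penk all PAB-F libraries lie above the shams in RV, and in Eno3 below them, while in Spt and LV the groups overlap or lie close.

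The promoters of the 6 genes of the first list that passed in this comparison are shown because the members lie together in RV and not in Spt. For 5 of them (all but Penk) RefSeq gave the 250 bases before the start on the rat build GRCr8, which is not the build of the counts. CATTCC, searched on both strands, the core of the MCAT element that TEAD factors bind in muscle genes, is in capitals (as its reverse complement in Nppb), and the 4 promoters that hold it follow, each 5′ to 3′ on the strand of its gene.
Nppb (chr5:163699758-163700007, plus strand): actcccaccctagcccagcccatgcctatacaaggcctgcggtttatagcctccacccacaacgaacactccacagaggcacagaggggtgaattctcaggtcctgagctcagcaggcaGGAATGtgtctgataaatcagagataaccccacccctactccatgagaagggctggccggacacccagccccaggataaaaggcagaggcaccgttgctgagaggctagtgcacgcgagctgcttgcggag
Acta1 (chr19:68784195-68784444, minus strand): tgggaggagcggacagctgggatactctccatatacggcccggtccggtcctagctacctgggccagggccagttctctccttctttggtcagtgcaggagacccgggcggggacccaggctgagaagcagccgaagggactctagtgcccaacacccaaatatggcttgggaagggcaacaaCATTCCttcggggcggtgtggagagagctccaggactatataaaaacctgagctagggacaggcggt
Ankrd23 (chr9:46274511-46274760, minus strand): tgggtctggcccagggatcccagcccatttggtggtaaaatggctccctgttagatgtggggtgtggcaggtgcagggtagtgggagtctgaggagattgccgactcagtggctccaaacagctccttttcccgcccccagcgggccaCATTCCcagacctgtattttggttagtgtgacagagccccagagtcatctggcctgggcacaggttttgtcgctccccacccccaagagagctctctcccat
Tceal7 (chrX:104019834-104020083, plus strand): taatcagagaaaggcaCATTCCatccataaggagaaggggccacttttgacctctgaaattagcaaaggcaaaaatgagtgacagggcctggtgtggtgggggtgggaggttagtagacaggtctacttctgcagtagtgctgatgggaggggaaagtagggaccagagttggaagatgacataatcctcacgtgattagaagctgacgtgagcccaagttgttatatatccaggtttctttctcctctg
The match began 131, 67, 102 and 234 bases before the start in Nppb, Acta1, Ankrd23 and Tceal7, and the window of Myh7 held none. Of all 33469 promoters of that table, 12.1% held the motif on either strand, as did 10.0% of 9174 tested genes with a promoter, 9 of 46 genes with a smaller response in Spt (19.6%) and 4 of 33 with a larger one (12.1%). A match is a run of letters and not a shown binding site.

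Among the 40 genes whose log2 difference was higher in Spt, most were lower in the failing RV and kept near the sham level in Spt. Eno3, the muscle enolase of glycolysis, read 557, 313 and 364 CPM in PAB-F, 931 and 901.9 in Sham-RF and 958, 964 and 955 in Sham-LF in RV, where all PAB-F libraries lay below the shams, and 585, 554 and 473 CPM in PAB-F, 625 and 655 in Sham-RF and 538, 719 and 598 in Sham-LF in Spt, where they overlapped. The difference was 1.02 ± 0.17 (log2, edgeR adjusted p = 0.00883). Colq, the collagen tail that anchors acetylcholinesterase, chosen here after its values were seen for its lowest p, read 9.81, 8.33 and 7.74 CPM in PAB-F, 15.5 and 16.1 in Sham-RF and 18.3, 20.3 and 18.2 in Sham-LF in RV and 10.3, 11.3 and 7.78 CPM in PAB-F, 7.46 and 8.61 in Sham-RF and 7.45, 10.2 and 8.52 in Sham-LF in Spt, with a difference of 1.27 ± 0.14 (edgeR adjusted p = 0.00103). Kcnd3, a channel of the transient outward current, was the only one of 21 channel genes to pass, at 0.80 ± 0.18 (edgeR adjusted p = 0.0473). Its RV values were 21.4, 15.5 and 14.1 CPM in PAB-F, 35.0 and 28.6 in Sham-RF and 23.2, 22.7 and 27.8 in Sham-LF, with PAB-F below the shams.

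The rule for named genes gave Gria4, a glutamate receptor subunit, and Cacng6, an auxiliary subunit of calcium channels, in this direction. Gria4 was at 0.417, 0.551 and 0.541 CPM in PAB-F, 2.58 and 1.43 in Sham-RF and 1.36, 1.39 and 1.08 in Sham-LF in RV and 0.979, 1.105 and 1.48 CPM in PAB-F, 0.470 and 1.08 in Sham-RF and 0.518, 0.352 and 0.674 in Sham-LF in Spt, the latter with overlap. Cacng6 read 4.59, 4.31 and 3.95 CPM in PAB-F, 3.23 and 2.22 in Sham-RF and 1.81, 2.198 and 3.49 in Sham-LF in Spt, above all shams, and 3.55, 2.08 and 2.17 CPM in PAB-F, 4.42 and 6.02 in Sham-RF and 3.03, 2.87 and 4.79 in Sham-LF in RV. Their differences were 2.55 ± 0.44 and 1.45 ± 0.29 (edgeR adjusted p = 0.0143 and 0.0329). Among fatty acid oxidation genes 0 of 33 passed. At an unadjusted p under 0.05, 11 had a higher log2 difference in Spt (33.3%, against 5.79% of all genes). Of 28 cell cycle genes 0 passed and 12 had a lower one (42.9%, against 7.54% of all genes).

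The 9 genes of the 93 with no overlap in Spt, a number near the 7.25% of all genes, are named after their values were seen. PAB-F lay above the shams in Tgfb2, Agpat3 and Cacng6 and below them in Thbd, Aloxe3, Kif15, Map3k11, Sstr4 and Stk32c. Thbd read 139, 125 and 127 CPM in PAB-F, 187 and 164 in Sham-RF and 241, 198 and 179 in Sham-LF in Spt and 138, 134 and 121 CPM in PAB-F, 125 and 115 in Sham-RF and 129, 128 and 104 in Sham-LF in RV, with a difference of −0.68 ± 0.13 (edgeR adjusted p = 0.028), so that here the lower level stood in the septum and not in the loaded ventricle. Aloxe3, at −1.05 ± 0.22 (edgeR adjusted p = 0.0383), was lower in Spt and in RV read 16.2, 19.1 and 13.2 CPM in PAB-F, 11.9 and 8.89 in Sham-RF and 14.3, 14.1 and 10.0 in Sham-LF, with overlap. Tgfb2 was above the shams in both chambers, in RV at 22.7, 66.9 and 42.6 CPM in PAB-F, 15.3 and 15.0 in Sham-RF and 11.7, 13.5 and 14.8 in Sham-LF, and the difference was −1.21 ± 0.28 (edgeR adjusted p = 0.0473).

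All 93 kept their direction when any 1 of the 8 animals was left out, but the number that passed ran from 5 (without PAB-F replicate 2) to 147 (without PAB-F replicate 1), and was 20 without Sham-LF replicate 3, 20 without Sham-LF replicate 2, 23 without PAB-F replicate 3, 30 without Sham-RF replicate 2 and 43 without Sham-RF replicate 1. Acta1, Penk and Colq passed in each of the 8 fits, as did Sypl2, of the triad membranes of muscle, and Rnd1, a small GTPase, both named after their values were seen. With the 5 animals of PAB-F and Sham-RF alone none passed, although all 93 had the same direction.

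Set against LV, no gene passed for a response that differed in Spt (0% of 11484, lowest edgeR adjusted p = 0.57), and DESeq2 called 3. At an unadjusted p under 0.05 there were 947 (8.25%), 446 larger (3.88%) and 501 smaller (4.36%) in Spt. Among the stress and stretch genes 3 of 23 were larger in Spt at an unadjusted p under 0.05 and 0 smaller, and the median difference was 0.30. Acta1 had the difference 0.64 ± 0.24, from LV values of 975, 1060.2 and 1070.5 CPM in PAB-F, 1187 and 1125 in Sham-RF and 1553, 1316 and 1247 in Sham-LF, where PAB-F lay below all shams. Ptgfr had 1.38 ± 0.43, with 1.52, 13.7 and 2.80 CPM in PAB-F, 3.69 and 5.62 in Sham-RF and 3.65, 3.58 and 5.57 in Sham-LF in LV. Neither passed, and a gene that does not pass is not thereby shown to respond alike in both chambers.

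The septum of right heart failure was then set against that of left heart failure. In a fit of 12 septum libraries PAB-F differed from AOB-F in 38 of 11249 genes (0.338%), 15 higher (0.133%) and 23 lower (0.204%) in PAB-F, and 2122 (18.9%) had an unadjusted p under 0.05. Age and time after surgery differ by 3 weeks between these groups and cannot be told apart from the vessel that was banded. Ankrd23 was at 100.1, 256 and 205 CPM in PAB-F and 948, 502, 767 and 353 in AOB-F, a difference of −1.78 ± 0.34 (log2, edgeR adjusted p = 0.0423). Every AOB-F library lay above every PAB-F library. Penk, at 295, 278 and 232 in PAB-F and 486, 629, 486 and 577 in AOB-F, differed by −1.02 ± 0.12 (edgeR adjusted p = 0.00401), and sham septum stood at 335 and 361 in Sham-RF and 378, 287 and 364 in Sham-LF.

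Eno3 stood at 588, 553 and 473 in PAB-F and 259.6, 320.4, 264 and 286 in AOB-F, with a difference of 0.93 ± 0.11 (edgeR adjusted p = 0.00401). Angpt1, a ligand of the endothelial receptor Tek, was higher in PAB-F, at 20.0, 13.3 and 16.8 against 2.55, 5.47, 4.67 and 4.78 (1.92 ± 0.31, edgeR adjusted p = 0.0183). Thbd was lower, at 139.8, 124 and 128 against 202, 260.2, 207 and 261 (−0.84 ± 0.13, edgeR adjusted p = 0.0179). In these 3 genes PAB-F and AOB-F had no overlap, a separation that 25.7% of all genes show with 3 against 4 libraries. The matrix genes Cilp and Prg4, the latter lubricin, were lower in PAB-F, with log2 differences of −1.77 ± 0.31 and −1.26 ± 0.22 (edgeR adjusted p = 0.0272 and 0.0263).

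By the rule, Dupd1, a dual specificity phosphatase of muscle, was the largest fall, at 0.833, 1.87 and 1.48 in PAB-F and 7.97, 4.10, 4.87 and 3.99 in AOB-F (−1.86 ± 0.32, edgeR adjusted p = 0.0272). The largest rises were Gria4, at 0.985, 1.102 and 1.48 against 0.131, 0.304, 0 and 0.262 with 1 AOB-F library at 0, and Sall1, a zinc finger transcription factor, at 3.33, 2.15 and 2.10 against 0.131, 0.810, 0.133 and 0.525. Both are near the limit of detection in AOB-F, and their fitted differences of 2.63 ± 0.50 and 2.53 ± 0.46 (edgeR adjusted p = 0.0423 and 0.0317) depend on that. Lhx6 and Hook1, a homeobox factor and a linker of microtubules to vesicles, chosen after their values were seen, differed by −1.01 ± 0.12 and 0.99 ± 0.13 (edgeR adjusted p = 0.00401 and 0.0101).

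By list, fatty acid oxidation genes were all on the higher side in PAB-F against AOB-F, with a median of 0.46. At an unadjusted p under 0.05, 25 of 33 were higher (75.8%, against 8.71% of all genes), though none passed after adjustment. In PAB-F against the pooled older shams the median of this list was 0.13, with 5 higher and 2 lower. Lower at an unadjusted p under 0.05 were 17 of 23 stress and stretch genes (73.9%, against 10.2% of all genes), 15 of 28 cell cycle genes and 17 of 28 interferon-stimulated genes, of which only Ankrd23 passed. Natriuretic peptides did not pass, with Nppa at 405, 2752 and 947 in PAB-F and 13958, 3135, 11353 and 1806 in AOB-F. The replicates of AOB-F were far apart in it, and PAB-F replicate 2 fell in their range.

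**Figure D5:**
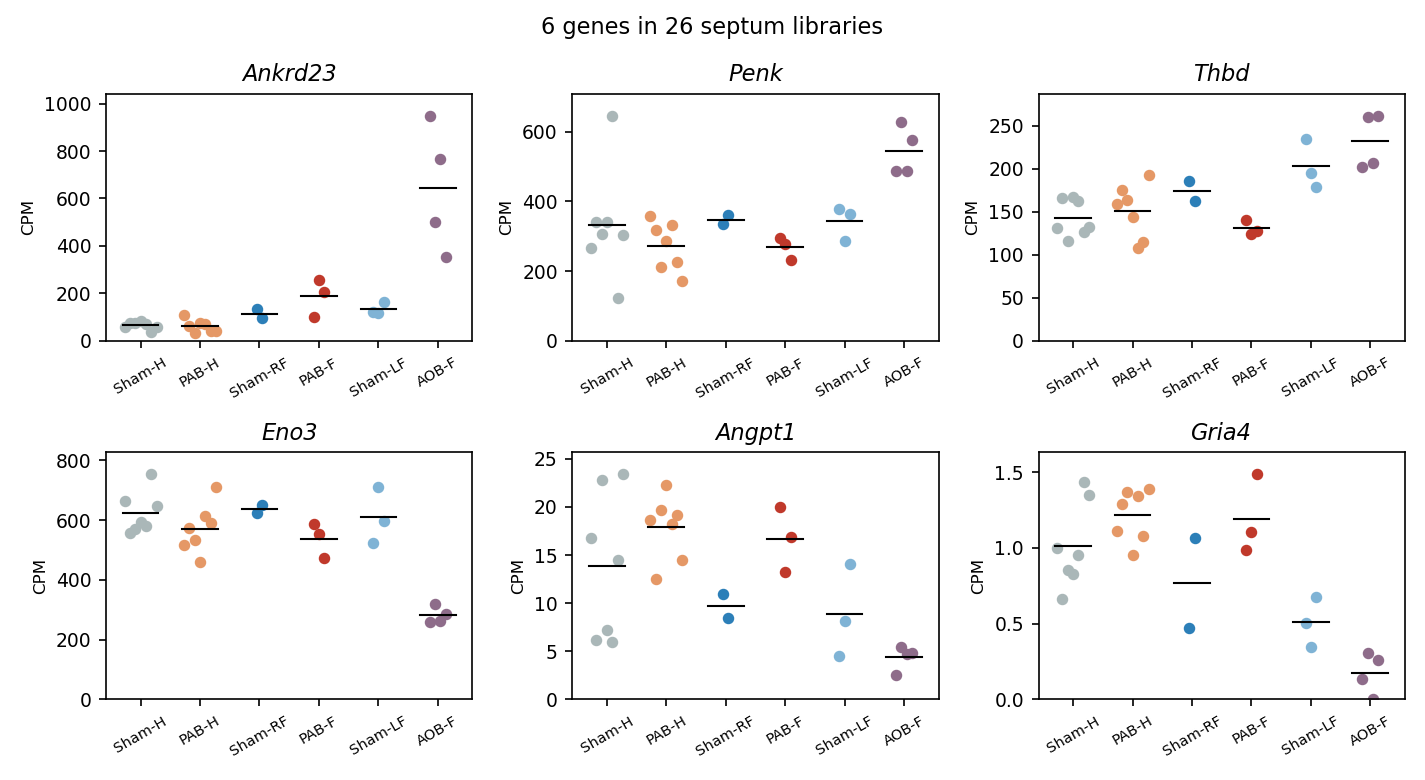
CPM of 6 genes in 26 septum libraries of 6 conditions, each point 1 animal and each bar a group mean, with vertical axes from 0. AOB-F has the highest mean of Ankrd23, Penk and Thbd and the lowest of Eno3, Angpt1 and Gria4, and the PAB-F values of Thbd lie below those of both groups of older shams.

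All 38 kept their direction without any 1 of the 7 PAB-F and AOB-F libraries, and the number that passed ran from 0 (without PAB-F replicate 2) to 103 (without AOB-F replicate 4), with 2 without PAB-F replicate 1, 7 without PAB-F replicate 3, 7 without AOB-F replicate 1 and 6 without AOB-F replicate 3. Penk and Lhx6 passed in 6 of these 7 fits. Without Sham-LF replicate 3, which enters only through the spread, 173 passed, and with the 7 libraries of PAB-F and AOB-F alone 648 did.

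The last comparison asked whether the response of the septum to pulmonary artery banding differed between failure and the compensated stage. No gene passed (0% of 11417, lowest edgeR adjusted p = 0.9999), and 292 (2.56%) had an unadjusted p under 0.05, fewer than the 571 that null tests would give. DESeq2 called 0. The library numbers of replicates 1 and 5 of both Sham-H and PAB-H lie in an earlier block than those of all other septa compared here. Whether the blocks were prepared apart is not given in the labels. With the block as a covariate 335 genes had an unadjusted p under 0.05, and with the later block alone 606 did. No gene passed in either fit. Sham-H replicate 5 stood apart, with a mean Pearson correlation of log2 CPM across genes with the other 13 libraries of this stage of 0.949 against 0.982 to 0.988 for the others. Without it 542 genes (4.75%) had an unadjusted p under 0.05 and without Sham-LF replicate 3 538 (4.71%), without Sham-LF replicate 1 188, and none passed in these fits. Nppa had the value 1.82 ± 0.59 and Nppb 0.79 ± 0.30 (log2, failure minus compensated stage), or 1.74 ± 0.60 and 0.73 ± 0.30 without Sham-H replicate 5. In PAB-H septum Nppb ran from 152 to 390.1 CPM around a median of 271, and in Sham-H from 288 to 485 around 423, the highest in replicate 5. Ankrd23 ran from 31.1 to 108 in PAB-H and from 35.3 to 82.2 in Sham-H, with overlap. Of the stress and stretch genes 6 of 23 were larger at failure at an unadjusted p under 0.05 and 0 smaller, with a median of 0.16. The share larger was 26.1%, against 1.12% of all genes. Without Sham-H replicate 5 the counts were 5 and 0, with a median of 0.21.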

How the data were processed

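Polyadenylated RNA of heart chambers was sequenced by the authors, who per the methods of the study used Trim Galore for trimming, STAR for mapping of single-end reads (rat build Rnor6.0) and featureCounts for counts of reads per gene. The deposited counts are whole numbers per gene that the authors did not normalize. The deposited normalized reads are a signal that equals the counts after division by a DESeq2 size factor of each library, as the authors made it. The deposited FPKM values are these divided by gene length, from which relative lengths were taken. Whether the counting used strand is not given in the sources used here, so overlapping genes on opposite strands may be affected.

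Samples were grouped by their titles. In the labels of RV libraries the tissue entry reads left ventricle, and the description of the RV library of Sham-LF replicate 1 names the other sham group, while title, source and column name agree and were followed. Only counts were tested, with the quasi-likelihood test of edgeR 4.0.16 (R 4.3.3) after TMM normalization and filterByExpr (count minimum 10), with Benjamini-Hochberg adjustment, two-sided, at an adjusted p of 0.05. The pooled comparison used 8 septum libraries in 2 groups, the comparisons with Sham-RF and between shams the same libraries in 3 groups, the comparisons between chambers 24 libraries with the animal as a block, that with AOB-F 12 and that between stages 22 libraries. Errors of log2 differences are standard errors (SE). Principal components used log2 CPM with edgeR's default prior count. For the deviations compared by replicate number, 0.5 was added to CPM before log2. Levels are CPM scaled within the 8 septum libraries, within the 24 libraries for values set beside RV or LV, and within 26 septum libraries for values set beside AOB-F or the compensated stage.

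Alternatives were DESeq2 1.42.0, RLE normalization, no filter, limma-voom 3.58.1 with and without sample weights, other sets of libraries, blocks, and leaving out each library. The tests were checked on simulated counts with large changes, the same spread for every gene and no library set apart. That check does not cover small differences or results that turn on a single library. The genes named are 10 fixed ones (6 that the study followed in situ, with Myh7 and 3 collagens), the 10 of lowest p in the pooled comparison, the 2 largest passing differences in each direction of each other comparison with no overlap and a mean of at least 1 CPM, and up to 4 of lowest p in each list. The libraries, the 21 gene lists and the 13 marker lists were chosen with earlier results of these data known. Promoters came from RefSeq on GRCr8.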

Additional observations from a re-analysis of the deposited data

Results flagged for a closer look

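In the septum, 4 of 100 named genes had 1 sham library far from the other 4 of the pooled older shams, and chance alone sets apart about 1 in 20 groups. Fbxo32 was at 14.26 CPM in Sham-LF replicate 3, where the nearest other sham had 7.128 CPM, and this is the library that lay with PAB-F over many genes. Taok1 was at 19.5 CPM in the same library, with 16.5 CPM as the nearest value. Mybpc2, a skeletal muscle form of myosin binding protein C, was at 7.479 CPM in Sham-RF replicate 1 (nearest 6.338 CPM), and Tgfb2 at 15.16 CPM in Sham-RF replicate 2 (nearest 17.26 CPM). The response to pulmonary artery banding differed between Spt and RV by the test of that difference in 93 genes, as described above.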

How the results depend on the processing

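Against the pooled shams, 0 genes higher and 0 lower became 1 higher with DESeq2, 813 higher and 345 lower with limma-voom and sample weights, and 0 to 588 higher and 0 to 300 lower when single libraries were left out (588 and 300 without Sham-LF replicate 3), with 0 in the other fits. Against Sham-RF alone it became 25 with DESeq2, 792 with 5 libraries and 0 to 241 when single libraries were left out (241 without Sham-LF replicate 3, an alternative chosen after seeing the data). Between the shams it became 15 with DESeq2 and 0 to 2 (2 without Sham-LF replicate 3). For Spt against RV, 93 became 188 with DESeq2, 91 with RLE, 81 without a filter, 0 with PAB-F and Sham-RF animals alone (chosen after seeing the data) and 5 to 147 with an animal left out. For Spt against LV, DESeq2 gave 3. Against AOB-F, 38 became 434 with DESeq2, 58 without a filter, 39 with all 33 septum libraries, 648 with 7 libraries, 173 without Sham-LF replicate 3, and 0 to 103 with a library left out. Between stages every fit gave 0. The cause of these shifts was not tested. Without PAB-F replicate 2, 3 log2 differences of the pooled comparison changed sign, Col1a1 to −0.0055, Myh7 to −0.023 and Nppb to −0.055, and over all 8 left-out libraries they reached 0.29, 0.31 and 0.53. Where 1 library stayed in a group, it was assumed to vary like the others.

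Without the animal block, 13 genes passed for Spt against RV and 0 for Spt against LV. Replicate numbers did not pair septum libraries across groups, with correlations of the deviations of 0.149 and 0.182 between PAB-F and Sham-RF but −0.22, −0.0551 and 0.0287 between PAB-F and Sham-LF. With the replicate number as a block, 0 genes passed in the pooled comparison, against Sham-RF, between shams and between stages, and 26 against AOB-F.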
